A study of Arabidopsis thaliana with 12 samples.

Results

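The psbE operon of the Arabidopsis plastid genome encodes 4 small membrane proteins of photosystem II, psbE, psbF, psbL and psbJ, on the minus strand. Its RNA was followed here through every minus-strand segment that overlaps nt 63000 to 64600 of the plastome (TAIR10 chloroplast coordinates), which gave 8 of 555 segments in the precipitates and 13 of 574 in the inputs. The operon was chosen from its precipitate values, because segments downstream of psbJ were among the lowest in the AtMKIP1-YFP precipitates relative to the AtBE3-YFP ones. The difference between the baits in the precipitates is therefore given as a description without a test. The input was not used in that choice and was tested.

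The data come from RNA co-immunoprecipitation followed by sequencing, with one anti-YFP precipitate and one input library from each pool of 10 g of 10-day-old seedlings. There were 3 pools per line and 12 libraries in all. One line carried AtMKIP1-YFP under the UBQ10 promoter in the mkip1-2 mutant. The control line carried AtBE3-YFP, a starch branching enzyme with the same tag, under the same promoter in Col-0, so it still has its own AtMKIP1. The UBQ10 promoter is active in most tissues, so neither bait has the expression pattern of its own gene, and the lines differ in the mkip1-2 mutation as well as in the bait. Reads were mapped to the plastid genome alone, so neither the bait transcripts nor nuclear markers of the tissue could be checked.

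Cytochrome b559, a heme protein at the core of photosystem II, is built from the products of psbE (its alpha subunit) and psbF (its beta subunit). psbL and psbJ encode small single-helix subunits beside it that are needed for normal electron flow and assembly of the complex. Plastid genes of this kind are transcribed together as one RNA, and inverted repeats downstream of the last gene often mark where such an RNA ends. AtMKIP1 works with the maturase MatK on group IIA introns, and none of the 4 genes holds an intron.

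Mapped reads numbered 119799 to 319005 in a precipitate library and 2213500 to 2868106 in an input library. All levels are given as CPM, the counts per 1000000 mapped reads. The borders of the segments were set by the software DiffSegR where the difference between the lines changes, separately in precipitate and input, so a border is not by itself a transcript end. Each read was counted once in every segment it touches. Segments shorter than a read therefore share their reads with their neighbours, and levels per nt were computed for reads of 18 nt and of 60 nt, the limits of the size filter.

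The reading frames run from psbE (nt 64071 to 64322, 252 nt) through psbF (nt 63942 to 64061, 120 nt) and psbL (nt 63804 to 63920, 117 nt) to psbJ (nt 63538 to 63660, 123 nt). Only 9 nt separate psbE from psbF and 21 nt psbF from psbL, while 143 nt lie between psbL and psbJ. The reference genome encodes ATG at all 4 starts. The precipitate segment with the highest level per nt covers the end of psbF and the beginning of psbL, and its RefSeq sequence is shown for that reason, with the stop codon of psbF and the start codon of psbL in capitals.
nt 63871 to 63960, minus strand: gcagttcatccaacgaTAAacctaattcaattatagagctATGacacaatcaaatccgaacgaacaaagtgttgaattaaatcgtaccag

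Downstream of psbJ, 2 inverted repeats lie near borders of the segments described below, one in the input and one in the precipitates. They are shown for that reason, with each arm given on its own in capitals.
Near repeat, upstream arm, nt 63485 to 63496: TCAACGGGGCCC
Near repeat, downstream arm, nt 63445 to 63456: GGGTCCCGTTGA
Far repeat, upstream arm, nt 63056 to 63072: TCGACACAAGAAAAGGA
Far repeat, downstream arm, nt 63029 to 63045: TCCTTTTCTTGTGTCGA
The near repeat can form a stem of 12 base pairs, 1 of them a G-U pair, around a loop of 28 nt. The far repeat can form a perfect stem of 17 base pairs around a loop of 10 nt, and its upstream arm lies inside nt 63049 to 63094. With G-U pairs allowed, a stem at least as long occurred in 5.42% of plastome windows of the length searched for the near repeat and in 0.499% for the far repeat. With Watson-Crick pairs alone, the longest stem at the near repeat had 8 pairs, and one at least as long occurred in 16.2% of such windows, while the 17 pairs of the far repeat were found in 0.389%. The 46 nt of nt 63049 to 63094, called the 3′ stretch here, begin 444 nt downstream of the last base of psbJ. The far repeat also lies downstream of petA, which encodes cytochrome f on the opposite strand. Its arms are reverse complements of each other and are 17 nt long, 1 nt shorter than the shortest read kept.

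In the input, no difference in operon RNA between the AtMKIP1-YFP and AtBE3-YFP lines passed the test over any of the 4 genes. The segment over psbJ (nt 63490 to 63721) had 1652, 2368 and 2755 counts in the AtMKIP1-YFP inputs, against 2373, 1978 and 2205 in the AtBE3-YFP inputs. This is 873 ± 113 CPM and 884 ± 19.8 CPM (SD, n = 3 each), and the log2 fold change was -0.02 (standard error 0.17). The ranges of the lines overlapped.

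The segment over psbF and the adjoining ends of psbE and psbL (nt 63857 to 64178) had 579 ± 88.7 CPM in the AtMKIP1-YFP inputs and 584 ± 73.8 CPM in the AtBE3-YFP inputs (SD, n = 3 each), and the log2 fold change was -0.01 (standard error 0.17). In the largest segment inside psbE (nt 64182 to 64302) the values were 169 ± 12.2 CPM and 169 ± 4.43 CPM (SD, n = 3 each) for AtMKIP1-YFP and AtBE3-YFP. The lowest log2 fold change of the operon in the input, -0.36 (standard error 0.20), belonged to the 7 nt of nt 63811 to 63817 in psbL, the one input segment where the libraries of the lines did not overlap. The 89 nt next to it, nt 63722 to 63810, had -0.32 (standard error 0.18), from 225, 292 and 398 counts in the AtMKIP1-YFP inputs, against 447, 312 and 336 in the AtBE3-YFP inputs. These neighbours share reads, and neither passed the test.

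None of the 13 input segments passed edgeR's quasi-likelihood test at an adjusted p under 0.01, and none had an unadjusted p under 0.05. The smallest adjusted p of the 13 was 0.396, and 0.021 with TMM scaling of the libraries. Across all 572 input segments tested, 1.57% were higher and 0.175% were lower in the AtMKIP1-YFP line. DESeq2 called none of the 13 with either of its size factors. Their log2 fold changes spanned -0.36 to 0.20 with a median of -0.02, beside a median of 0.07 over all input segments. The log2 fold changes plus and minus 2 standard errors stayed between -0.76 and 0.61, within a change of 2-fold in either direction.

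**Figure D1:**
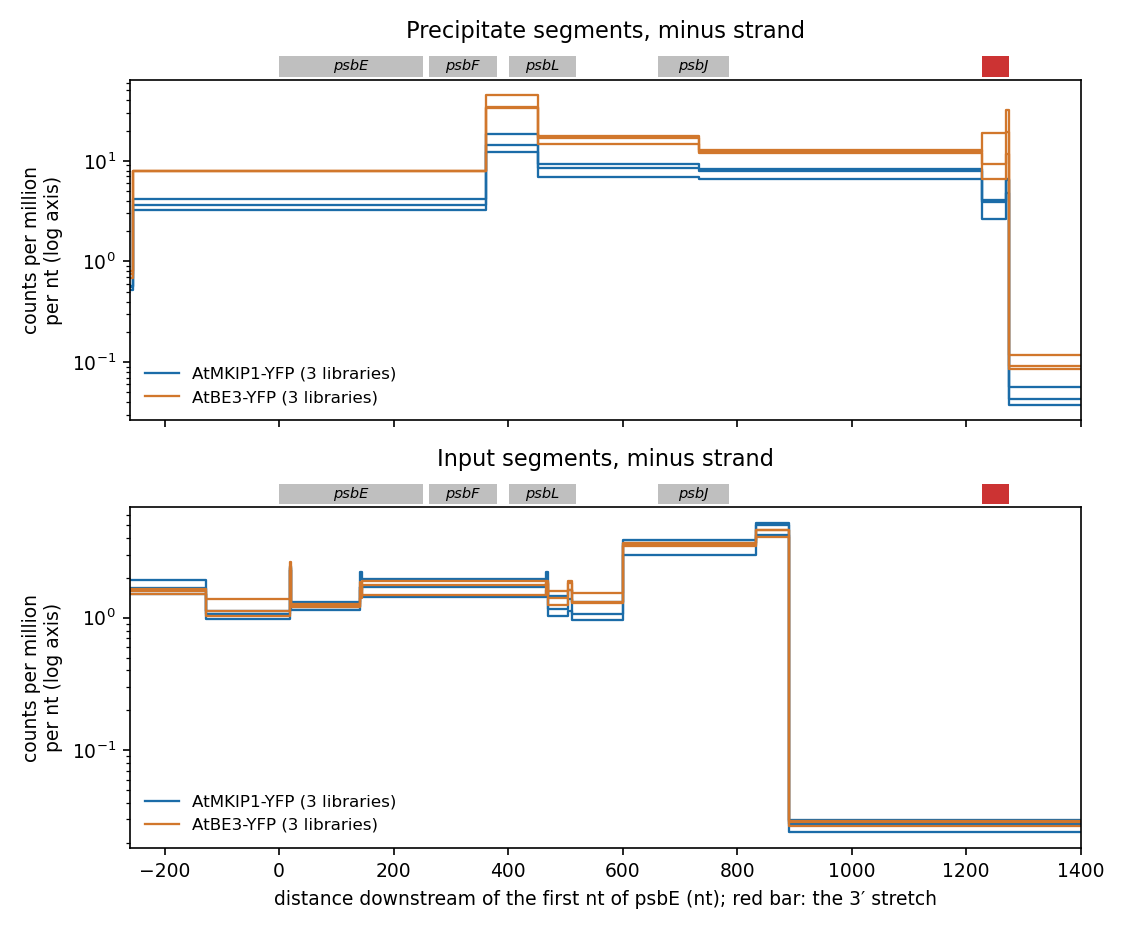
Level per nt along the operon in precipitates (top) and inputs (bottom), in CPM per nt for reads of 18 nt on log axes, one line per library, against the distance from the first nt of psbE. The AtMKIP1-YFP precipitates lie below the AtBE3-YFP ones throughout, both peak at the border of psbF and psbL, and the inputs of the lines overlap in all but the segment nt 63811 to 63817. The input level downstream of the segment nt 63433 to 63489 is one average over a long segment that includes the 3′ stretch (red bar).

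The genes of the operon differed more from each other than the lines did. Per nt, psbJ had the highest input level, 3.51 ± 0.452 CPM per nt in the AtMKIP1-YFP line and 3.55 ± 0.0794 CPM per nt in the AtBE3-YFP line (SD, n = 3 each, reads of 18 nt). It was above psbE by 2.46 ± 0.137 fold, above psbL by 2.28 ± 0.204 fold and above psbF by 2.07 ± 0.190 fold (SD over 6 libraries), and in 6 of 6 libraries each time. psbF was in turn above psbE by 1.19 ± 0.0591 fold in 6 of 6 libraries. psbJ and psbF were each read from 1 input segment that runs past the gene on both sides, so their levels are averages over more than the gene. psbL and psbE could not be ordered, since psbL was the higher in 5 of 6 libraries for reads of 18 nt and in 2 of 6 for reads of 60 nt.

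Downstream of psbJ the input level per nt first stayed near that of psbJ and was then low on average. The 57 nt of nt 63433 to 63489, the segment just downstream of the psbJ one, had 355 ± 40.5 CPM in the AtMKIP1-YFP inputs and 327 ± 23.7 CPM in the AtBE3-YFP inputs (SD, n = 3 each). For AtMKIP1-YFP and AtBE3-YFP this was 4.80 and 4.42 CPM per nt for reads of 18 nt, against 3.51 and 3.55 in the psbJ segment. For reads of 60 nt the segment had 3.06 and 2.82 CPM per nt, against 3.00 and 3.04. The whole 9505 nt downstream of this 57-nt segment (nt 53928 to 63432) had only 505, 686 and 816 counts in the AtMKIP1-YFP inputs, against 744, 571 and 674 in the AtBE3-YFP inputs. Per nt, the level upstream of this border was above the one downstream by 174 to 181 fold in the AtMKIP1-YFP inputs and by 142 to 173 fold in the AtBE3-YFP inputs for reads of 18 nt, and by 91.0 to 116 fold over both lines for reads of 60 nt. The 3′ stretch lies inside the long segment and has no input value of its own. This is an average over the whole segment, which also reaches into the beginning of atpB, and its counts may lie unevenly. The part of it between the border and the 3′ stretch is not resolved, so the inputs do not show where the operon RNA ends and neither bear out nor contradict an end at nt 63049 to 63094.

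Counts upstream of psbE cannot be read as operon RNA. The input segment nt 64451 to 66498 had 7638, 10263 and 9017 counts in the AtMKIP1-YFP line and 8931, 6932 and 8266 in the AtBE3-YFP line. The adjoining segment in the proline tRNA gene trnP, nt 66499 to 66531, had 7832, 10400 and 9193 counts and 9006, 6988 and 8424 counts in the same libraries. The long segment thus had 97.5% to 99.2% of the counts of its tRNA neighbour, and reads across that border count in both. How many of its reads cross it was not tested.

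In the precipitates, the operon RNA was at lower levels with AtMKIP1-YFP than with AtBE3-YFP in each of the 8 segments, and the libraries of the baits did not overlap in any of them. The operon was chosen on this contrast. How many of all precipitate segments are without overlap was not counted, so nothing is read from this. At the psbF and psbL border (nt 63871 to 63960) the AtMKIP1-YFP precipitates had 1964, 1530 and 1309 CPM, against 3607, 3649 and 4783 CPM in the AtBE3-YFP precipitates. The log2 fold change was -1.33 (standard error 0.20). The segment over psbE and the beginning of psbF (nt 63961 to 64578) had 2662, 2310 and 2040 CPM with AtMKIP1-YFP, against 5065, 5058 and 5058 CPM with AtBE3-YFP, a log2 fold change of -1.11 (standard error 0.17). The segment from psbL into psbJ (nt 63590 to 63870) had 2756, 2527 and 2063 CPM, against 4984, 5213 and 4382 CPM, a log2 fold change of -0.99 (standard error 0.18).

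These values stand beside a general difference between the precipitates. The 120 precipitate segments outside both the operon and the loci of the introns that AtMKIP1-YFP precipitates had a median log2 fold change of -0.74 with mapped reads as library size, while the median over all 553 segments tested was 2.06. Of all segments, 15.2% were lower and 72.3% were higher with AtMKIP1-YFP at an adjusted p under 0.01, and 7 of the 8 operon segments were among the lower ones. Since the operon was chosen on this contrast, nothing is read from that count. Relative to the median of -0.74, the segments over psbE, over the psbF and psbL border and from psbL into psbJ lay at -0.38, -0.59 and -0.25. The segment from the end of psbJ to the 3′ stretch (nt 63095 to 63589) had -0.69 (standard error 0.17) and lay at 0.05 relative to that median.

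Library scaling set the size of all these values. Without any scaling of the libraries the log2 fold changes of the 8 segments ran from -1.10 to 0.15 and none passed. Of all 554 segments tested, 1 was then lower and 401 were higher with AtMKIP1-YFP. With libraries scaled on the segments outside the target loci, the values of the 8 ran from -1.18 to 0.18 and 2 passed as lower. Of all 553 segments tested, 16 were then lower and 425 were higher. Since the operon was chosen on this contrast, nothing is read from how many of its 8 segments passed under either scaling. The segment upstream of psbE, nt 64579 to 69653, which also covers trnW, trnP and further genes, was -0.43 with mapped reads as library size, but 0.15 and 0.18 with these other scalings. Relative to the median of the other segments outside the target loci, the psbF and psbL border lay between -0.71 and -0.49. This range covers every scaling, filter, tool and left-out library tried, over which its own log2 fold change ran from -3.48 to -0.71. A change of scaling moves all segments nearly alike and so cancels in the relative value. The narrow range is therefore no support for that value.

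**Figure D2:**
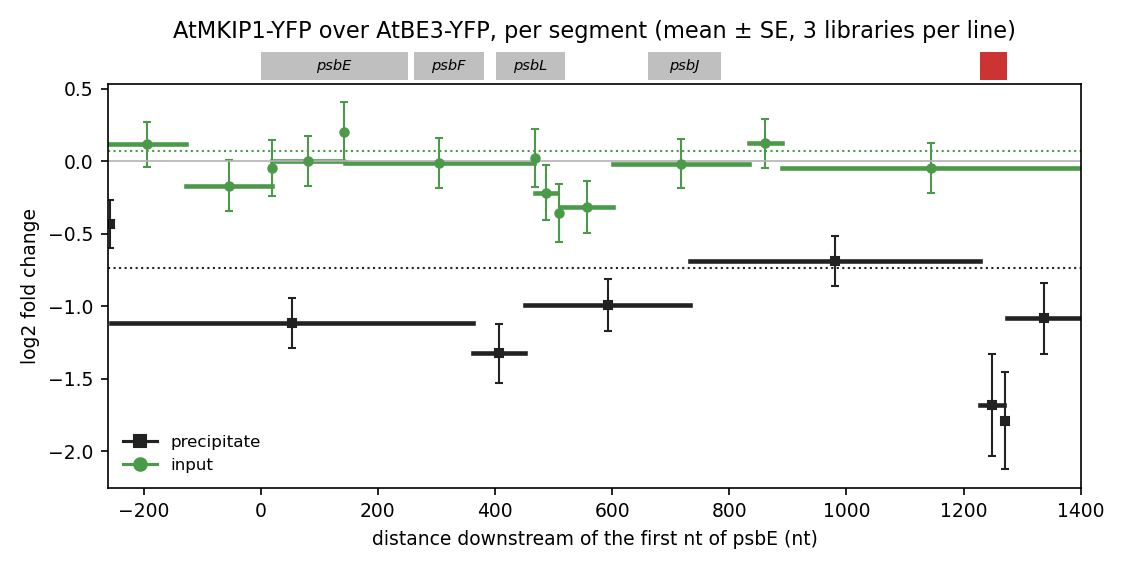
Log2 fold change of AtMKIP1-YFP over AtBE3-YFP per segment with its standard error (3 libraries per line), for precipitates (black squares) and inputs (green circles), against the distance from the first nt of psbE; thick lines span the segments and dotted lines are the medians of the segments outside the target loci and the operon, -0.74 in the precipitate and 0.07 in the input. The input segments lie between -0.36 and 0.20, and the lowest precipitate values, -1.79 and -1.68, are in the 3′ stretch (red).

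The lowest values were in the 3′ stretch, for which the operon was chosen. The 41 nt of nt 63054 to 63094 had 50, 49 and 61 counts in the AtMKIP1-YFP precipitates, against 87, 99 and 130 in the AtBE3-YFP precipitates. In CPM these are 234, 154 and 228 with AtMKIP1-YFP, and 542, 384 and 1085 with AtBE3-YFP, a log2 fold change of -1.68 (standard error 0.35). The 5 nt next to it (nt 63049 to 63053) had 31, 34 and 38 counts with AtMKIP1-YFP, against 69, 67 and 85 with AtBE3-YFP, and a log2 fold change of -1.79 (standard error 0.34). No read is as short as 5 nt, so every read in the 5 nt also touches a neighbouring segment. How many reads the 2 segments share was not tested, and they are not taken as separate observations.

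The spread of the 3′ stretch came mostly from one library. AtBE3-YFP replicate 3 was the highest at both segments, with 710 CPM at nt 63049 to 63053, against 430 and 260 CPM in AtBE3-YFP replicates 1 and 2. Without it the log2 fold changes were -1.37 at nt 63049 to 63053 and -1.17 at nt 63054 to 63094. It had the fewest mapped reads of the 12 libraries, 119799. In the order of all 553 precipitate segments from the lowest, the 2 segments stood at places 4 and 8.

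Set against the coding segments of the same library, the 3′ stretch did not separate the baits. Its counts came to 5.14%, 4.09% and 6.82% of those over the coding segments in the AtMKIP1-YFP precipitates, against 7.12%, 4.63% and 12.6% in the AtBE3-YFP precipitates, and these ranges overlapped. The log2 ratio was -4.26 ± 0.370 with AtMKIP1-YFP and -3.74 ± 0.726 with AtBE3-YFP (SD, n = 3 each), a difference of -0.51 that is smaller than the SD between the AtBE3-YFP libraries. It was -0.13 without AtBE3-YFP replicate 3.

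In the input only the 9505-nt segment that holds the stretch could be set against the coding segments, and 46 of its nt are the stretch, so this ratio says nothing about the stretch itself. The ratio was 13.5%, 13.3% and 13.0% in the AtMKIP1-YFP inputs, against 13.0%, 13.3% and 13.6% in the AtBE3-YFP inputs. The difference of the log2 ratios was 0.0003 (exact two-sided permutation test over samples, p = 1.0, n = 3 each), in a design whose smallest possible p is 0.10. With the segment at the near repeat in its place, the percentages were 18.3%, 18.8% and 17.5% in the AtMKIP1-YFP inputs and 14.3%, 17.8% and 16.6% in the AtBE3-YFP inputs. That difference was 0.17 on the log2 scale (exact permutation test, p = 0.20, n = 3 each), with overlapping ranges.

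**Figure D3:**
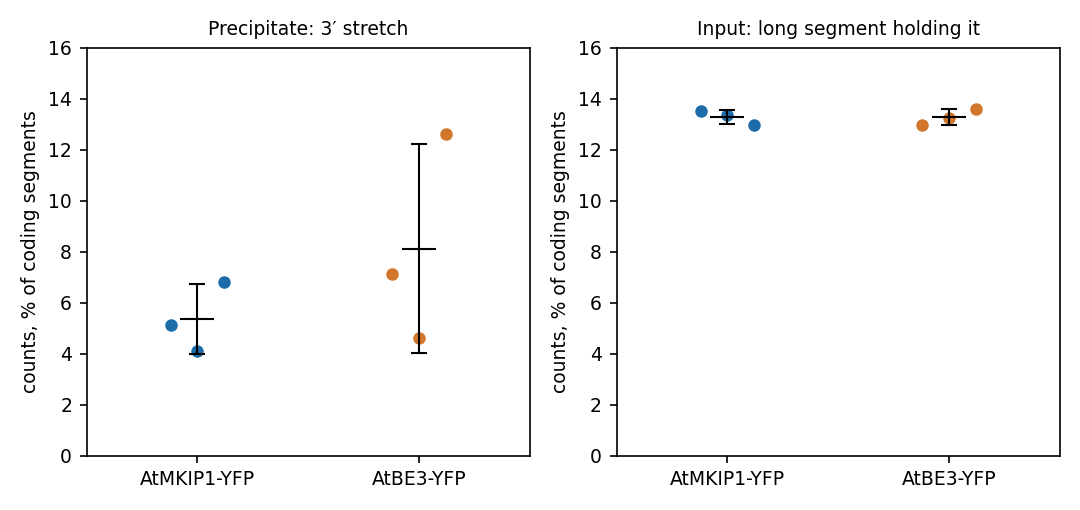
Counts downstream of psbJ as a percentage of the counts over the coding segments in the same library, for the 3′ stretch in precipitates (left) and for the long segment that holds it in inputs (right); points are libraries, bars the mean and SD of 3. AtBE3-YFP replicate 3 is alone at 12.6%, the other 5 precipitates lie between 4.09% and 7.12%, and all inputs lie between 13.0% and 13.6%.

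Within the operon, the precipitate counts can also be given as shares per segment, a measure that needs no library size. The segment from the end of psbJ to the 3′ stretch took 35.6%, 37.9% and 37.1% of the counts inside the window with AtMKIP1-YFP, against 30.9%, 29.6% and 28.2% with AtBE3-YFP. The psbF and psbL border took 16.3%, 14.3% and 14.3% with AtMKIP1-YFP, against 17.0%, 17.6% and 21.5% with AtBE3-YFP. The segment over psbE and the beginning of psbF took 22.1%, 21.7% and 22.2% with AtMKIP1-YFP, against 23.9%, 24.5% and 22.7% with AtBE3-YFP. In each of these segments the libraries of the baits were apart without overlap, over psbE only by 22.2% against 22.7% at the nearest. DiffSegR set the borders where the difference between the lines changes, so unlike shares in adjoining segments follow in part from the borders. How many segments elsewhere are without overlap in such shares was not counted, and nothing is read from this. The shares add up to a whole, so a higher share in one segment lowers those of others. The segment from psbL into psbJ did not separate the baits, with 23.0% ± 0.626 for AtMKIP1-YFP and 22.8% ± 2.85 for AtBE3-YFP (SD, n = 3 each). The segments of the 3′ stretch overlapped as well. These shares come from the same precipitate counts on which the operon was chosen and were not tested.

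The order of the genes in the precipitates was unlike that in the inputs. psbL was the highest in the precipitates of both baits, with 11.1 ± 1.98 CPM per nt for AtMKIP1-YFP and 25.4 ± 1.89 CPM per nt for AtBE3-YFP (SD, n = 3 each, reads of 18 nt). It was above psbE by 3.09 ± 0.200 fold and above psbF by 2.02 ± 0.0317 fold in 6 of 6 libraries (SD over 6). psbJ came to 0.651 ± 0.0939 of psbL in the precipitates, below it in 6 of 6 libraries, and to 2.28 ± 0.204 of psbL in the inputs. psbF and psbL take their precipitate level from the same segment in part, the 90 nt printed above. psbJ was above psbF in 5 of 6 precipitates for reads of 18 nt and in 6 of 6 for reads of 60 nt. The methods describe ribosomal RNA depletion and fragmentation for the input RNA only, and their part in this difference was not tested.

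**Figure D4:**
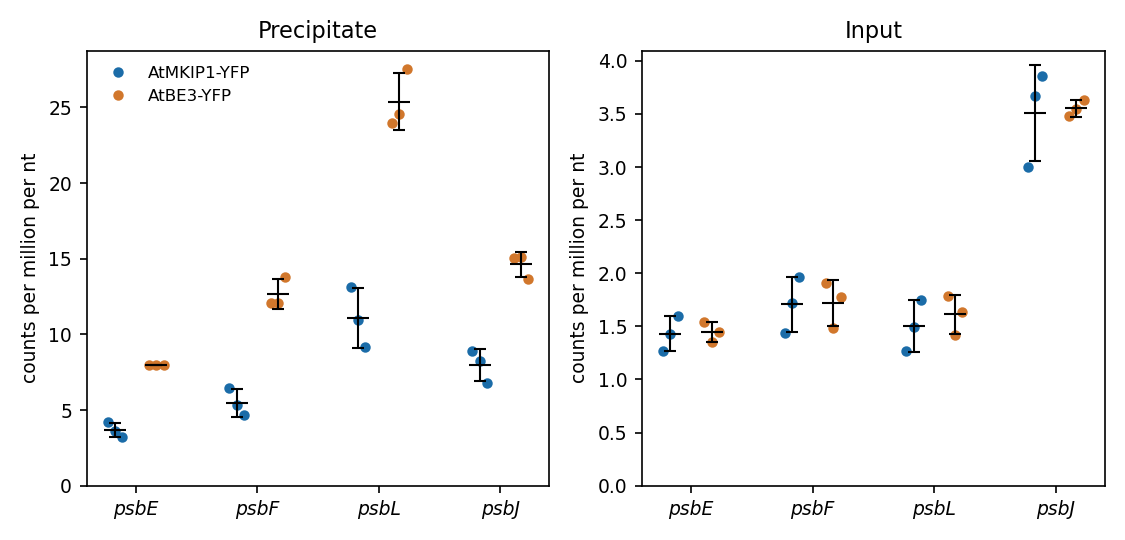
Level of each gene in CPM per nt (reads of 18 nt), in precipitates (left) and inputs (right); points are libraries, bars the mean and SD of 3 for AtMKIP1-YFP (blue) and AtBE3-YFP (orange). psbL is highest in the precipitates (11.1 and 25.4) and psbJ in the inputs (3.51 and 3.55).

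Over the whole coding span (nt 63538 to 64322, 785 nt), both baits had a higher level per nt in the precipitate than in the input of the same pool. The ratio of the levels was 3.61 ± 1.04 for AtMKIP1-YFP and 7.29 ± 0.437 for AtBE3-YFP (SD, n = 3 each). The lowest AtBE3-YFP pool, at 6.84, was above the highest AtMKIP1-YFP pool, at 4.72. These levels use mapped reads as library size, with which the precipitate segments outside the target loci and the operon also had a median log2 fold change of -0.74. With scaling outside the target loci, the median of the 8 operon segments was -0.48 in place of -1.10. The ratio was not computed for other genes or other scalings, so the gap is not particular to the operon on these values. The precipitate side of this ratio is the contrast the operon was chosen on, and precipitate and input libraries were prepared differently, so the ratio compares the baits and is no measure of binding.

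The other photosystem II genes of the plastome were compared in the same fits. The list of psbA, psbB, psbC, psbD, psbH, psbI, psbK, psbM, psbN, psbT and psbZ, which includes the D1 and D2 reaction centre proteins (psbA and psbD) and the antenna proteins CP47 and CP43 (psbB and psbC), was covered by 21 precipitate segments. Of these, 18 were lower and none was higher with AtMKIP1-YFP, beside 15.2% lower and 72.3% higher of all 553 segments tested. Most segments of that base lie in target loci (427 of 555 before filtering). From the lowest, nt 63095 to 63589 stood at place 74 both among all 553 and among the 128 outside the target loci. Down to that place every segment was thus outside the target loci, and the count is not read as a trait of photosystem II. The 21 segments had a median log2 fold change of -0.95. It was -0.74 for the segments outside the target loci and the operon and -1.05 for the 4 precipitate segments over the operon genes. psbN, which is encoded between psbT and psbH on the opposite strand and serves in assembly of the complex, had -1.22. psbI and psbK, small subunits read from one shared segment, had -1.21, psbM had -1.19 and psbB had -0.41. Length-weighted over their segments, psbE, psbF, psbL and psbJ had -1.11, -1.15, -1.13 and -0.86, inside the range of the list.

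In the input, 103 segments covered the 11 other photosystem II genes. Of these, 1 was higher and none was lower in the AtMKIP1-YFP line, beside 1.57% higher and 0.175% lower of all 572. An unadjusted p under 0.05 was found for 19 of the 103. The share under 0.05 was not counted over all 572, and 42 of the 103 lie in psbB, where neighbouring segments can share reads. Nothing is read from the 19. The median log2 fold change of the 103 was 0.14. The one higher segment lies in psbZ, a small subunit at the edge of the core, whose length-weighted value was 0.38. The values of psbD and psbN were 0.37 and 0.30, and those of psbK and psbI -0.30 and -0.21, and none of the segments of these 4 genes passed.

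**Figure D5:**
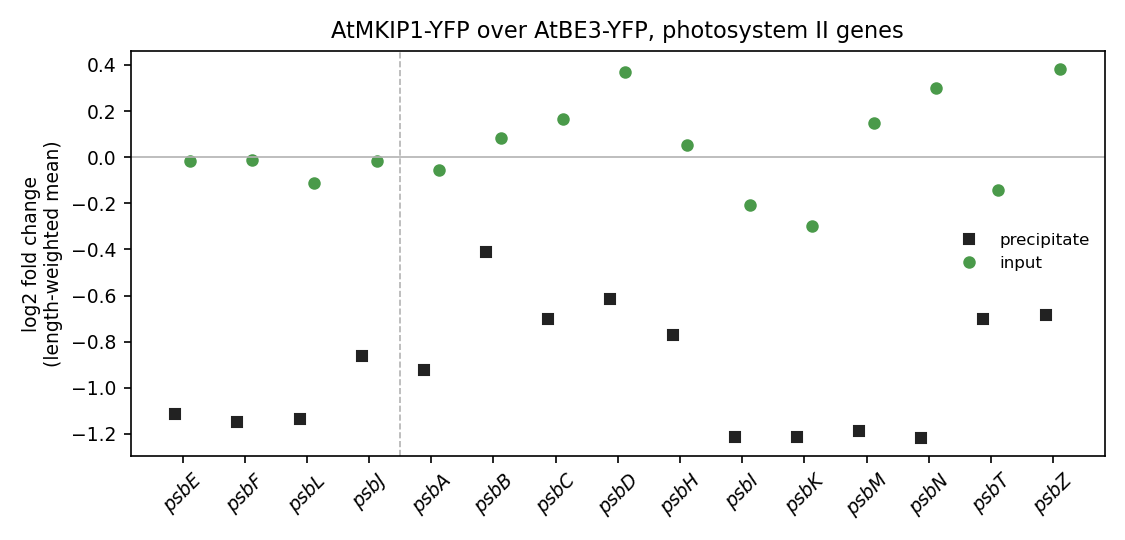
Log2 fold change of AtMKIP1-YFP over AtBE3-YFP for the photosystem II genes, as the length-weighted mean over the segments of each gene, in precipitates (black squares) and inputs (green circles); the 4 genes of the operon are left of the dashed line. All 15 precipitate values are below 0, from -1.22 to -0.41, and the operon genes are at -1.15 to -0.86.

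The neighbouring genes were petA, beyond the 3′ side of the operon and on the opposite strand, petL and petG, which encode small cytochrome b6f subunits, and the tRNA genes trnW and trnP. Of the 24 input segments over these 5 genes, none passed the test, and their median log2 fold change was 0.13. In the precipitates, 2 segments covered them, one per strand. The plus-strand segment with petA, petL and petG was lower with AtMKIP1-YFP (-0.84). The minus-strand one with trnW and trnP is among the operon segments described above and had -0.43, given without a test.

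The genes whose levels varied most like the operon over the 12 libraries, after the mean of each fraction was removed, were ndhF, ndhD, psaC, atpH and psbA. Pearson's r with the coding span was 0.996 for ndhF and for ndhD, subunits of the NDH complex that lie in one segment in each table and so count once. It was 0.992 for psaC, an iron-sulfur subunit of photosystem I, 0.988 for atpH, a subunit of ATP synthase, and 0.987 for psbA. The 77 genes ranked had a median r of 0.92, and all points share the libraries and their sizes. Removing the mean of each fraction leaves in the difference between the baits in the precipitates, on which the operon was chosen. The ranking is therefore a description only. Over the inputs alone, r was 0.968 for ndhF and ndhD, 0.890 for psaC, 0.875 for atpH and 0.859 for psbA. There, petB had 0.950, above psaC, atpH and psbA. In the precipitates the segment with ndhF and ndhD had a log2 fold change of -0.999, and psaC, atpH and psbA had -1.20, -1.17 and -0.92.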

How the data were processed

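The members of the operon, the gene lists and the alternatives were chosen with earlier results of these data known. Per the methods, adapters were trimmed with Cutadapt, inserts of 18 to 60 nt were kept, STAR aligned them to the chloroplast genome of TAIR10 less its second inverted repeat, and UMI-tools collapsed duplicates that carried the same 8-nt tag. Versions of these tools are not given in the sources used here. Removal of duplicates is named in the header of the mapped reads of the precipitates and not in that of the inputs. The deposited values are raw counts of reads in strand-specific segments. DiffSegR placed the segment borders on the contrast between the lines, which the p-values do not allow for. No fold changes or p-values of the authors were used. All 12 libraries were grouped by their labels.

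From the counts, all segments were fitted with edgeR's quasi-likelihood F test (version 4.0.16, R 4.3.3). Library size was the authors' number of mapped reads without a further factor, filterByExpr removed segments with few counts (minimum 10, total 15), and p-values were adjusted over all segments by Benjamini-Hochberg and called under 0.01. The standard error is the log2 fold change divided by the square root of F. The edgeR common dispersion had a square root of 0.188 in the precipitates and 0.131 in the inputs. Target loci were the genes with the introns known for this complex, with the rpl22 to rpl23 region and rps12, and any segment touching one was left out of the median of the other segments. Levels per nt divide a count by the segment length plus the read length minus 1. Log2 values per library used a pseudocount of 0.5 counts. Ratios were compared with exact permutation tests. The 3′ end ratio divides the counts of the segment or segments that hold most of the 3′ stretch by those of the segments with most of their length inside the coding span.

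Named were all segments of the operon, its genes and neighbours, the other photosystem II genes, and the 5 protein-coding genes most correlated with the operon that share no segment with it. Stems were searched by script in each region with 30 nt on either side, with loops of 3 to 40 nt, once with Watson-Crick pairs alone and once with G-U pairs allowed. Sequences and gene positions are from RefSeq on the same chloroplast genome. The fit was tested on simulated counts. Replicates are separate seedling pools, and no pair of libraries agreed within sampling noise. Counting errors alone were not used, since pools vary more. Summaries and figures were made with pandas 2.3.3, numpy 2.4.6 and matplotlib 3.10.9 in Python 3.11.15. Alternatives were TMM, summed counts, no scaling and scaling outside the target loci, DESeq2 1.42.0, no filter, one strand only, other segment choices, a replicate block and leaving out each library.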

Additional observations from a re-analysis of the deposited data

How the results depend on the processing

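None of the 13 input segments over the operon passed under any of the 13 alternatives, but some came closer than in the main fit. Under TMM, edgeR's test gave 4 of the 13 an unadjusted p under 0.05. The lowest adjusted p was then 0.021, in the 89 nt from nt 63722. The standard error there was 0.093, against 0.18 in the main fit. DESeq2 by default, the minus strand alone and leaving out AtMKIP1-YFP replicate 3 each gave 2 under 0.05, and the other alternatives gave none. Of the 13 segments, 6 with a log2 fold change near 0 changed sign. These were nt 63854 to 63856 (-0.068 under TMM, -0.052 in DESeq2 by default, -0.113 to 0.110 with 1 library left out), nt 64182 to 64302 (-0.083, -0.065 and -0.057 to 0.046, also -0.0065 with summed counts and -0.0019 with the replicate block) and, with 1 library left out only, nt 53928 to 63432 (-0.118 to 0.037), nt 63490 to 63721 (-0.091 to 0.083), nt 63857 to 64178 (-0.125 to 0.095) and nt 64303 (-0.089 to 0.012). The 10 input segments called among all became 4 under TMM, 6 in DESeq2 by default, 2 in DESeq2 on mapped reads, 0 of 180 with the minus strand alone (edgeR) and 2 with a replicate block. Leaving out 1 library gave 2 to 30, the highest without AtMKIP1-YFP replicate 1. The cause of these differences was not tested. The labels do not say that equal replicate numbers share a batch, and same-numbered inputs correlated at 0.12, 0.04 and -0.14, so the numbers were not taken as pairs. With the replicate block the difference of the input 3′ ratio was 0.0003 and that of the precipitate ratio -0.51.

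The median log2 fold change of the 8 precipitate segments, -1.10, was -3.26 under TMM, -3.09 in DESeq2 by default, -1.82 with summed counts, -0.51 without library scaling and -0.48 with scaling outside the target loci. The median of the other segments outside the target loci moved along, to -2.89, -2.72, -1.46, -0.16 and -0.12. Only nt 64579 to 69653 changed sign, to 0.15 and 0.18 under the last pair of scalings. Leaving out 1 library, the input 3′ ratio differed by -0.016 to 0.017 and changed sign in 4 of 6 cases (-0.013 and -0.0034 without AtMKIP1-YFP replicates 1 and 2, -0.016 and -0.00061 without AtBE3-YFP replicates 1 and 2), and the precipitate ratio by -0.86 to -0.13. The 3′ stretch rests on 31 to 61 counts per segment in each AtMKIP1-YFP library.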
